A study of Mus musculus with 18 samples.

Results

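A pair of sorted cell gates from mammary glands of mice carrying the Y541S mutation of the estrogen receptor gene Esr1 were compared here across all genes. One gate is labelled N and the other mature luminal (ML), and each has 3 libraries, so the comparison rests on 6 of the 18 libraries of the series. The members were taken by the genotype and gate in the sample labels and by no measured value. All 18 libraries came from 6-month-old mice implanted with pellets of estradiol (E2) and progesterone (P4) and then given the oral estrogen receptor antagonist and degrader giredestrant at 30 mg/kg each day for 4 days. The other 12 libraries are the same 2 gates from wild-type mice (WT) and from mice with the Esr1 mutation D542G, 3 libraries each, and they enter here only to estimate the spread and in a test of the difference at the end. No untreated or undosed library was analysed here, so what is described is a difference between gates under treatment. The labels do not give the surface markers of either gate, and they do not say whether libraries of a group came from different mice. The p-values therefore measure the spread between these libraries, which may be technical.

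The mouse mammary duct has an inner luminal layer and an outer basal layer. Luminal cells include hormone-sensing cells, which carry the estrogen and progesterone receptors, and hormone-receptor-poor progenitor cells that can feed the milk-making alveolar lineage, and both express the simple-epithelium keratins Krt8, Krt18 and Krt19. Basal cells express Krt5 and Krt14 and the transcription factor p63, contract through smooth-muscle actin and myosin in response to oxytocin, and lie on a basement membrane of laminins and collagens that they help to make. Mature luminal cells respond to estrogen by signalling to their neighbours through secreted ligands such as amphiregulin and, after progesterone, Wnt4 and RANK ligand.

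The labels give mature luminal cells as the source of both gates, and the marker genes go against that for the N libraries. The genes Krt14, Acta2, Oxtr and Cnn1 were far higher in N than in ML, and luminal genes such as Epcam and Muc1 were lower, as given in detail below. The N libraries are therefore called by their gate name only. The ML libraries carried luminal keratins, Esr1 (271, 49.4 and 112 CPM in libraries 1, 2 and 3) and also the progenitor genes Kit (515, 875 and 584 CPM) and Ltf (2917, 8414 and 6811 CPM), so both luminal classes are represented in that gate. CPM is a gene's read count scaled to a common library size. It is not corrected for gene length, so levels are compared between libraries and not between genes. Below, CPM values are given for libraries 1, 2 and 3 of each gate in that order.

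The 6 libraries held 40939626 to 44400675 counted reads and 18464 to 20529 detected genes each. Some of them stood out by epidermal, hair follicle, milk or B-lineage transcripts, of which the milk genes belong to the mammary gland itself. Summed over a list of epidermal differentiation genes, N 3 held 14600 CPM and ML 3 2700 CPM, against 15.4 to 52.8 CPM in the other 4, and hair follicle keratins summed to 5520 CPM in ML 3 and 1010 CPM in N 3 against 27.8 to 42.2 CPM. Milk and alveolar genes summed to 43700 CPM in ML 2 and 40000 CPM in N 2, against 1790 to 17500 CPM in the rest, and immunoglobulin and other B-lineage genes to 4720 CPM in ML 2 against 457 to 1060 CPM. The same-numbered N and ML libraries thus shared these extra transcripts, epidermal genes in number 3 and milk genes in number 2. Their deviations from the gate means also correlated within a number (r = 0.228, 0.21 and 0.507 for numbers 1, 2 and 3, against at most 0.171 between numbers), and the numbers were therefore treated as pairs in a second fit, although the labels do not state a pairing. Each result that rests on N 3 is given with and without it.

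**Figure D1:**
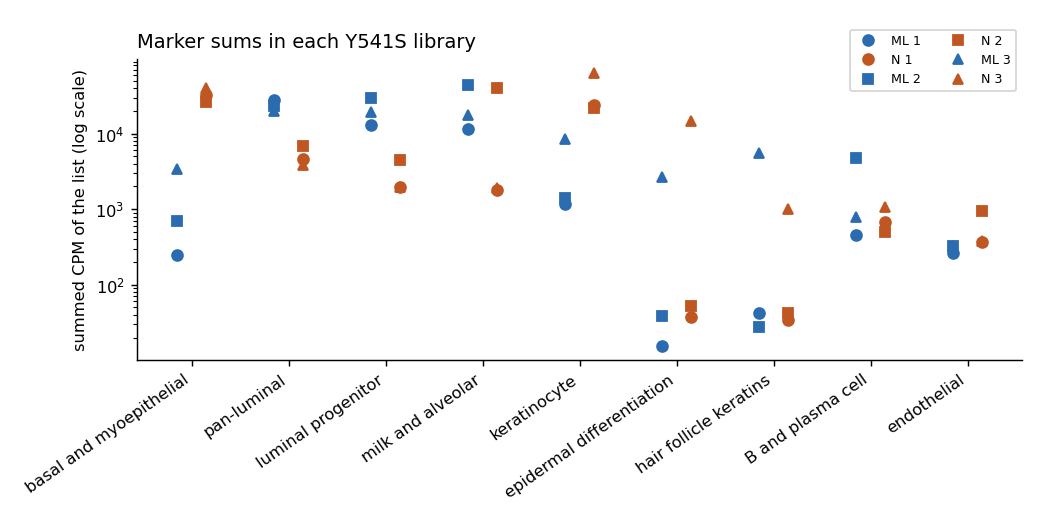
Summed CPM (log scale) of 9 marker lists in each of the 6 Y541S libraries; blue symbols are ML, orange symbols N, and the symbol shape gives the library number. Basal and pan-luminal sums separate the gates in all 3 libraries, while epidermal sums are high in N 3 and ML 3 and milk sums in ML 2 and N 2.

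Of 18298 genes tested with edgeR's quasi-likelihood test, 773 were higher and 499 lower in N than in ML at an adjusted p below 0.05 (Benjamini-Hochberg), which is 6.95% of all genes, 4.22% higher and 2.73% lower. In 1267 of these 1272 genes the 3 N values did not overlap the 3 ML values, an arrangement found in 30.1% of all tested genes. The median log2 fold change over all tested genes was -0.02. Without N 3 there were 750 genes higher (4.1%) and 402 lower (2.2%). Of the 1272 genes, 944 (74.2%) were called again without N 3, 671 higher and 273 lower, and 208 others were called only without it. With the pairs as a block, 905 genes were higher (4.95%) and 684 lower (3.74%), and 1061 (83.4%) of the 1272 were among them. The counts depended on single libraries, with 371 higher and 227 lower without ML 1, 446 and 244 without ML 2, 421 and 201 without N 1, 331 lower without ML 3, and 1089 higher (5.95%) and 1002 lower (5.48%) without the wild-type library N 3, which adds to the pooled spread. Wild-type N 3 held 1216 CPM of Prlr, against 91.7 and 72.3 CPM in wild-type N 1 and N 2. Its Epcam was at 1870 CPM against 491 and 579 CPM, while its Muc1, at 14.3 CPM against 10.4 and 14.8 CPM, did not differ so. Its limma-voom sample weight, 0.18, was the lowest of the 18 libraries. Whichever 1 of the 18 libraries was dropped, 457 genes stayed called, 321 higher and 136 lower, and they carry most of what follows. In bulk libraries a smaller share of a cell type and less RNA per cell cannot be told apart.

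**Figure D2:**
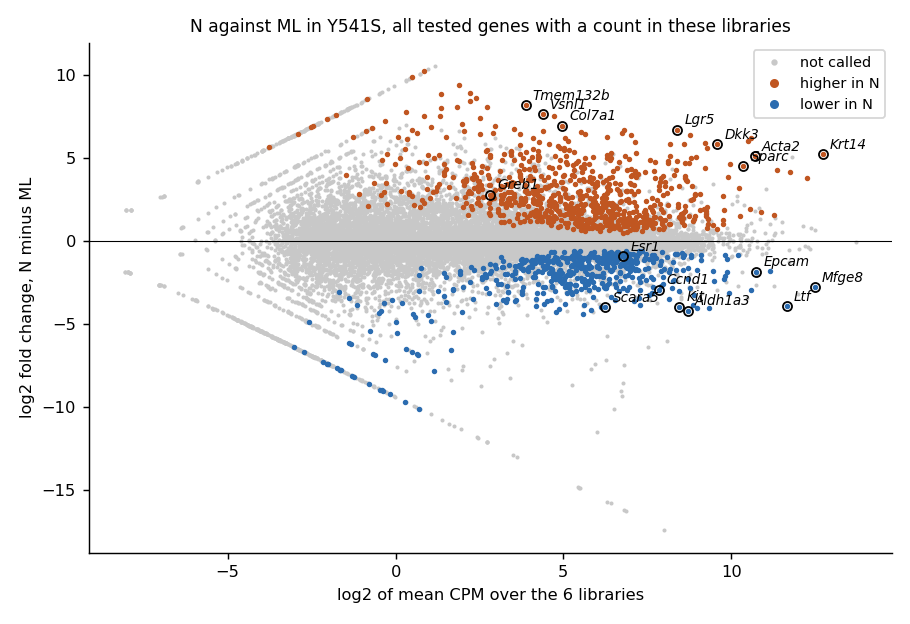
Log2 fold change (N minus ML) against the log2 of the mean CPM over the 6 libraries, for all tested genes with a count in these libraries; orange points were called higher in N and blue points lower, at an adjusted p below 0.05. Called genes span the range of levels, with Vsnl1, Lgr5 and Krt14 among those higher and Kit, Aldh1a3 and Mfge8 among those lower, while Esr1 was not called.

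The 10 genes with the largest rise in N, among called genes of moderate level, were Tmem132b, Vsnl1, Xkr4, Col7a1, Col14a1, Lgr5, Cdh10, Sbspon, Scn7a and Il17b. Vsnl1, a neuronal calcium sensor, was at 0.214, 0.175 and 0.226 CPM in ML and 67.0, 35.5 and 23.2 CPM in N, so that N and ML stood apart by a log2 fold change of 7.65 ± 0.63, edgeR adjusted p = 6.61e-05 (± is an approximate standard error worked back from the test's F statistic). Lgr5, the R-spondin receptor known as a stem cell marker in gut and hair follicle, was at 1.45, 3.30 and 13.98 CPM in ML and 982, 705 and 297 CPM in N (6.72 ± 1.08, edgeR adjusted p = 0.00193). Col7a1, which forms the fibrils that anchor epithelium to stroma, was at 0.975, 0.05 and 0.452 CPM in ML and 73.5, 60.05 and 52.2 CPM in N (6.96 ± 1.14, edgeR adjusted p = 0.00215). The 10 were drawn only from genes whose N and ML values do not overlap, so the gap between the gates follows from the choice. Il17b, a cytokine of the interleukin-17 family, was at 0.119, 0.525 and 0.203 CPM in ML and 27.0, 34.2 and 15.9 CPM in N (6.50 ± 1.18, edgeR adjusted p = 0.00452). The cadherin Cdh10 was at 0.309, 0.6 and 0.316 CPM in ML and 74.0, 36.1 and 14.8 CPM in N (6.66 ± 1.29, edgeR adjusted p = 0.00661). The ion channel gene Scn7a reached 296, 166 and 177 CPM in N against 0.571, 1.93 and 4.34 CPM in ML (6.54 ± 1.41, edgeR adjusted p = 0.012). The Scn7a call was lost without ML 1 (edgeR adjusted p = 0.0576) or without ML 2 (edgeR adjusted p = 0.0589). The largest fold change, of Tmem132b (8.19 ± 1.71, edgeR adjusted p = 0.0101), rested on ML values of 0.0238, 0.225 and 0.0452 CPM. The Tmem132b call was lost without ML 1 (edgeR adjusted p = 0.0547). The remaining genes, Xkr4 (7.55 ± 1.29), Sbspon (6.60 ± 1.04) and Col14a1 (6.73 ± 0.98), kept their calls with each library left out, as did Vsnl1, Lgr5, Col7a1, Cdh10 and Il17b. Xkr4, Col7a1, Col14a1, Lgr5, Sbspon and Il17b overlap another annotated gene, and the strand used in counting is not given, so their counts are less certain.

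Basal and myoepithelial genes rose in N. Of 18 tested members of that list, 13 were called higher and none lower, against 4.22% of all genes, with a median log2 fold change of 4.68 against -0.02 for all genes, and 17 of the 18 had all N values above all ML values, as did 14.8% of all genes. The count was 13 without N 3 and 15 in the paired fit. The contractile apparatus makes up most of them. Acta2, smooth-muscle actin, was at 46.2, 131 and 99.9 CPM in ML and 4639.6, 2438 and 2674 CPM in N (5.13 ± 0.75, edgeR adjusted p = 0.00101). The highest ML library was far below the lowest N library. Cnn1, calponin, was at 3.85, 16.2 and 8.90 CPM in ML and 808, 447 and 445 CPM in N (5.87 ± 1.004, edgeR adjusted p = 0.00296). Myl9, the regulatory light chain of smooth-muscle myosin, was at 9.18, 23.3 and 29.1 CPM in ML and 716, 441 and 457 CPM in N (4.71 ± 0.54, edgeR adjusted p = 0.000258). Tagln, a smooth-muscle actin-binding protein, was at 2.54, 5.73 and 6.57 CPM in ML and 104, 55.0 and 66.1 CPM in N (3.92 ± 0.50, edgeR adjusted p = 0.000385). Tpm2, a tropomyosin, was at 8.51, 38.9 and 38.5 CPM in ML and 915, 811 and 533 CPM in N (4.72 ± 0.67, edgeR adjusted p = 0.000873). The myosin heavy chain Myh11 (3.88 ± 0.74), the kinase Mylk that activates it (4.95 ± 1.04) and Lmod1, which nucleates actin in smooth muscle (4.13 ± 0.65), also rose and kept their calls with every library left out in turn. Oxtr, the oxytocin receptor through which these cells are told to contract, was at 22.3, 33.3 and 18.5 CPM in ML and 1809, 1183 and 623 CPM in N (5.61 ± 0.84, edgeR adjusted p = 0.00116). Actg2, the other smooth-muscle actin, was at 0.499, 1.35 and 2.17 CPM in ML and 54.3, 16.2 and 30.5 CPM in N and did not pass (4.65 ± 1.36, edgeR adjusted p = 0.0533).

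Contractile genes are known targets of serum response factor, which binds the CArG box, and the boxes found by sequence in the promoters of this list are shown because its members moved together. In the RefSeq promoters (GRCm38.p6), a box was searched for on both strands in the 250 bases before the start, as CC, 6 bases of which at least 5 are A or T, and GG. Promoters were at hand for 12 of the basal list's genes, and 2 of them, Acta2 and Myl9, held 2 boxes each, printed 5′ to 3′ on the gene's strand as 30-base windows with the box in capitals.
Acta2, chr19:34255438-34255467, minus strand, box beginning 84 bases before the start: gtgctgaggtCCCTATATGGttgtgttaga
Acta2, chr19:34255388-34255417, minus strand, box beginning 34 bases before the start: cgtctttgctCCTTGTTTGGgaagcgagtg
Myl9, chr2:156775293-156775322, plus strand, box beginning 161 bases before the start: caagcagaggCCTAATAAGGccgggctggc
Myl9, chr2:156775355-156775384, plus strand, box beginning 99 bases before the start: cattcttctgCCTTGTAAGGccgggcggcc
A box of these letters was present in 8.59% of all 32851 promoters, in 8.54% of 785 promoters of genes called higher and in 9.73% of 473 promoters of genes called lower, so over all called genes its share was near that of the background. A match of letters is a description and not a measured binding site.

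The basal keratins were high in N and varied in ML. Krt14 was at 50.3, 159 and 839 CPM in ML and 10648, 9469 and 19480.5 CPM in N (5.24 ± 1.25, edgeR adjusted p = 0.0208). The Krt14 call was lost without ML 1 (edgeR adjusted p = 0.0727) or without ML 2 (edgeR adjusted p = 0.0867). Its partner Krt5 was at 6.89, 28.7 and 597 CPM in ML and 5344, 4663 and 11029 CPM in N and missed the threshold in the unpaired fit (5.05 ± 1.54, edgeR adjusted p = 0.0638) but passed with the pairs as a block (adjusted p = 0.0103). Trp63, which encodes p63, the transcription factor that maintains basal and epidermal cells, showed the same arrangement, with 3.54, 7.08 and 108 CPM in ML and 676, 344 and 608 CPM in N (3.77 ± 1.41, edgeR adjusted p = 0.128 unpaired, 0.0257 paired). In all 3 genes ML 3 was the highest ML library and the N values did not overlap the ML values. ML 3 also held 906 CPM of the suprabasal epidermal keratin Krt10, against 4.47 and 9.35 CPM in ML 1 and ML 2. The part that these transcripts play in the ML 3 values of Krt14, Krt5 and Trp63 was not tested. Cdh3, P-cadherin, was higher in N (4.90 ± 1.32, edgeR adjusted p = 0.0373). The Cdh3 call was lost without any one of ML 1, ML 2, N 1, N 2 or 4 of the 12 libraries of the other genotypes (edgeR adjusted p = 0.0502 to 0.133).

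**Figure D3:**
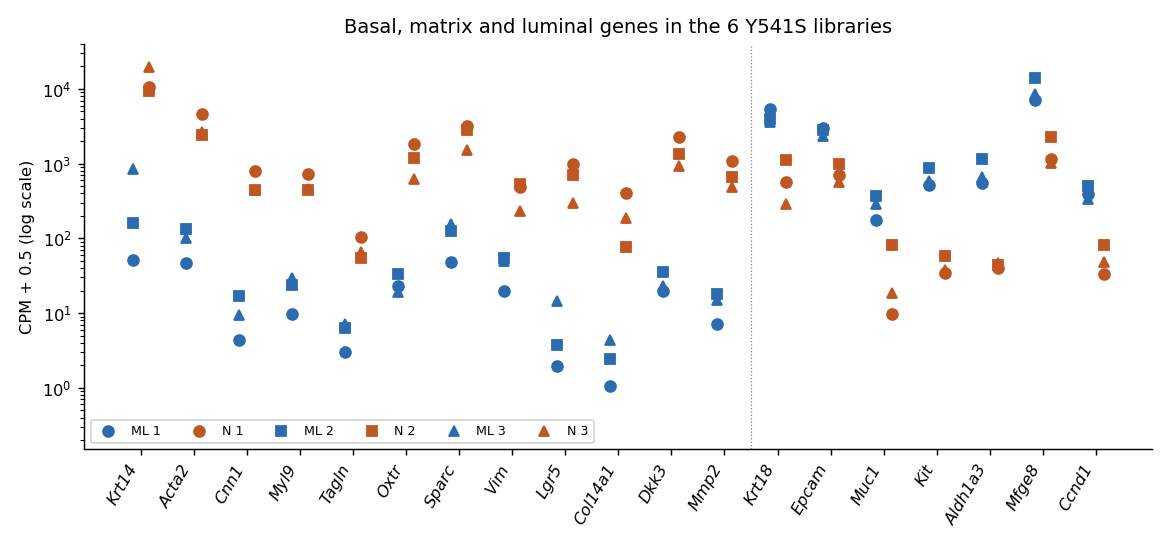
CPM plus 0.5 (log scale) of 12 genes higher in N (left of the dotted line) and of 7 lower in N or tested as luminal genes (right) in the 6 Y541S libraries; blue is ML, orange is N and the shape gives the library number. Each gene's 3 N libraries lie on one side of its 3 ML libraries, and ML 3 is the highest ML library for Krt14 and Lgr5.

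Genes of the mesenchymal transition list moved in part. Of 17 tested, 4 were higher and none lower, against 4.22% and 2.73% of all genes, with a median of 2.10. The higher count was 7 without the wild-type library N 3. The 4 were Snai2, Mmp2, Axl and Prrx1. Snai2, a repressor of epithelial genes that is also expressed in basal mammary cells, was at 0.38, 1.65 and 8.06 CPM in ML and 103, 103 and 138 CPM in N (5.09 ± 1.05, edgeR adjusted p = 0.00943). Mmp2, a gelatinase, was at 6.58, 17.3 and 14.7 CPM in ML and 1101, 666 and 492 CPM in N (5.87 ± 0.68, edgeR adjusted p = 0.000259). The receptor kinase Axl was at 18.0, 29.7 and 62.8 CPM in ML and 751, 532 and 510.3 CPM in N (4.02 ± 0.59, edgeR adjusted p = 0.00109). The homeobox gene Prrx1 was at 0.499, 1.28 and 2.06 CPM in ML and 34.0, 23.1 and 15.4 CPM in N (4.24 ± 0.81, edgeR adjusted p = 0.00593). Vim, the intermediate filament vimentin, was called higher, at 19.4, 54.5 and 48.9 CPM in ML and 489, 533 and 235 CPM in N (3.36 ± 0.52, edgeR adjusted p = 0.00147), while fibronectin, Fn1, was at 2.64, 0.475 and 9.65 CPM in ML and 5.06, 8.07 and 19.3 CPM in N and was not called.

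Many genes of the extracellular matrix and its receptors rose in N. Of 21 tested collagen genes, 10 were higher and 1 lower, against 4.22% and 2.73% of all genes, so the lower count was near that share. Col16a1, a fibril-associated collagen, was at 15.4, 24.5 and 13.3 CPM in ML and 378, 333 and 262 CPM in N (4.19 ± 0.40, edgeR adjusted p = 8.49e-05), with little spread in either gate. Col18a1, a basement membrane collagen, was at 10.2, 17.5 and 40.6 CPM in ML and 980.0, 503 and 436 CPM in N (4.81 ± 0.78, edgeR adjusted p = 0.00208). Col12a1 was at 2.57, 4.03 and 2.62 CPM in ML and 86.1, 103 and 50.7 CPM in N (4.70 ± 0.71, edgeR adjusted p = 0.00123). Col14a1 was at 0.571, 1.90 and 3.84 CPM in ML and 405, 75.6 and 189 CPM in N (6.73 ± 0.98, edgeR adjusted p = 0.001). The fibrillar collagens Col5a1 (2.79 ± 0.55) and Col5a2 (5.39 ± 0.94) and the microfibrillar Col6a1 (2.81 ± 0.56) rose as well. Col17a1, a part of the hemidesmosome, was at 0.713, 7.30 and 50.2 CPM in ML and 1074, 775 and 1693 CPM in N (5.93 ± 1.40, edgeR adjusted p = 0.02). The Col17a1 call was lost without ML 2 (edgeR adjusted p = 0.0823). The basement membrane chain Col4a2 rose too (2.59 ± 0.65, edgeR adjusted p = 0.0284). The Col4a2 call was lost without any one of ML 1, ML 2, ML 3 or N 1 (edgeR adjusted p = 0.0616 to 0.121). The collagens typical of fibroblasts did not pass, with Col1a2 at 6.80, 17.1 and 27.4 CPM in ML and 72.3, 71.1 and 48.7 CPM in N (1.90 ± 0.70, edgeR adjusted p = 0.125). Col3a1 was at 16.5, 25.3 and 76.5 CPM in ML and 47.1, 33.0 and 99.3 CPM in N. The 1 collagen lower in N was Col8a1, at 979, 171 and 408 CPM in ML and 70.9, 40.5 and 25.7 CPM in N (-3.51 ± 0.99, edgeR adjusted p = 0.0458). The Col8a1 call was lost without any one of ML 1, ML 3, N 1, N 2, N 3 or 6 of the 12 libraries of the other genotypes (edgeR adjusted p = 0.0537 to 0.176). Sparc, a matrix protein that binds collagen, was at 47.5, 124 and 157 CPM in ML and 3222, 2821 and 1502 CPM in N (4.52 ± 0.56, edgeR adjusted p = 0.000363).

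Of 24 tested integrin and laminin genes, 10 were higher and none lower, against 4.22% and 2.73% of all genes. The higher count stayed between 8 and 10 with any 1 library left out. Laminin chains of the epithelial basement membrane were among the genes called higher. Lama3 was at 8.03, 16.1 and 25.9 CPM in ML and 374, 199 and 265 CPM in N (4.07 ± 0.76, edgeR adjusted p = 0.00563). Lamb3 was at 80.8, 173 and 103 CPM in ML and 820.1, 897 and 816 CPM in N (2.83 ± 0.55, edgeR adjusted p = 0.0067). Integrins, the receptors for laminins, rose as well. The alpha-3 integrin Itga3 was at 99.1, 71.2 and 87.3 CPM in ML and 296, 237 and 274 CPM in N (1.65 ± 0.25, edgeR adjusted p = 0.00125), with close values within each gate. Itgb4, the beta-4 chain of the hemidesmosome, was at 77.6, 67.3 and 74.1 CPM in ML and 324, 194 and 302 CPM in N (1.90 ± 0.38, edgeR adjusted p = 0.00798). Its partner Itga6, CD49f, used in many mammary sorting schemes, was at 289.6, 158 and 220.1 CPM in ML and 721, 445 and 752 CPM in N (1.52 ± 0.34, edgeR adjusted p = 0.0155). The Itga6 call was lost without any one of ML 2, ML 3 or N 1 (edgeR adjusted p = 0.0504 to 0.0715). Itga9, which binds tenascin and other matrix ligands, had the largest fold change of the called integrins, at 3.57, 1.80 and 1.74 CPM in ML and 101, 62.6 and 30.1 CPM in N (4.77 ± 0.67, edgeR adjusted p = 0.000842). Lamb1 (2.43 ± 0.46) and Lamc1 (1.29 ± 0.24) also rose, and Itga1 was called (2.40 ± 0.66, edgeR adjusted p = 0.0419). The Itga1 call was lost without any one of ML 1, ML 2, N 1, N 2 or 4 of the 12 libraries of the other genotypes (edgeR adjusted p = 0.0504 to 0.125). The beta-1 chain Itgb1, the common partner of many alpha chains, was at 668, 581 and 574 CPM in ML and 1159, 792 and 738 CPM in N and was not called (0.56 ± 0.25, edgeR adjusted p = 0.201), although N and ML did not overlap.

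Of 32 tested Wnt signalling genes, 7 were higher and 1 lower in N, against 4.22% higher and 2.73% lower over all genes, so the lower count was near the share over all genes. Among Wnt ligands, Wnt5b fell, at 352, 748 and 461 CPM in ML and 112, 112 and 81.4 CPM in N (-2.35 ± 0.28, edgeR adjusted p = 0.000267). Wnt11 rose, at 24.98, 7.48 and 44.7 CPM in ML and 277, 235 and 118 CPM in N (3.03 ± 0.64, edgeR adjusted p = 0.0105). The Wnt11 call was lost without ML 1 (edgeR adjusted p = 0.0514). Both are ligands that mostly act outside the beta-catenin branch. Among receptors, Fzd7 was at 32.7, 31.1 and 40.7 CPM in ML and 228, 173 and 194 CPM in N (2.51 ± 0.24, edgeR adjusted p = 8.49e-05), with the 2 gates far apart relative to their spread. Lgr5, described above, and its relative Lgr4, at 25.5, 27.5 and 60 CPM in ML and 191, 112 and 95.4 CPM in N (1.82 ± 0.44, edgeR adjusted p = 0.0226), rose. The Lgr4 call was lost without any one of ML 1, ML 2 or N 1 (edgeR adjusted p = 0.0923 to 0.105). Fzd2 rose (2.86 ± 0.74, edgeR adjusted p = 0.0324). The Fzd2 call was lost without any one of ML 1, ML 2, ML 3 or N 1 (edgeR adjusted p = 0.0546 to 0.131). The secreted modulator Dkk3 was at 19.1, 35.5 and 22.8 CPM in ML and 2249, 1344 and 936 CPM in N (5.87 ± 0.61, edgeR adjusted p = 9.71e-05). Sfrp1, a Wnt-binding antagonist, was at 1.55, 9.38 and 20.4 CPM in ML and 1191, 826 and 593 CPM in N (6.38 ± 0.92, edgeR adjusted p = 0.000964). Both rose from low ML levels. Axin2 and Lef1, which are among the transcripts used as readouts of beta-catenin signalling, were not called. Axin2 was at 0.166, 0.25 and 1.97 CPM in ML and 1.84, 0.0503 and 2.39 CPM in N. Lef1 was low except in ML 3 (22.5 CPM). Others used so were called, Lgr5 and Myc as higher and Ccnd1 as lower, and signalling itself was not tested. The higher count of the list was 4 without ML 1 and 9 in the paired fit, and the lower count was 3 without N 3, where Wnt7b (adjusted p = 0.00176 against 0.0995 with N 3 and 0.0215 in the paired fit) and Wnt4 (adjusted p = 0.0329) joined.

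Of 20 tested Notch genes, 4 were higher and 1 lower, against 4.22% and 2.73% of all genes, so the lower count was near that share. The counts were 5 and 2 in the paired fit, against 4.95% and 3.74% of all genes. The ligand Dll1, known in basal mammary cells, was at 0.88, 4.15 and 9.22 CPM in ML and 182, 154 and 125 CPM in N (5.01 ± 0.77, edgeR adjusted p = 0.0014). The ligand Jag1 was at 69.5, 28.3 and 74.8 CPM in ML and 230.2, 149.9 and 189.5 CPM in N (1.72 ± 0.37, edgeR adjusted p = 0.0119). The Jag1 call was lost without N 1 (edgeR adjusted p = 0.0502). Lfng, the glycosyltransferase that tunes Notch for its ligands, was at 10.6, 9.08 and 5.96 CPM in ML and 53.6, 32.9 and 30.0 CPM in N (2.18 ± 0.36, edgeR adjusted p = 0.00214). Dlk2, a non-canonical ligand, was at 0.143, 0.225 and 1.02 CPM in ML and 24.1, 14.6 and 38.5 CPM in N (5.79 ± 1.39, edgeR adjusted p = 0.022), with its call lost without ML 1 (adjusted p = 0.0958) or ML 2 (adjusted p = 0.0879). The receptor Notch3, which marks luminal cells, fell, with 40.5, 43.5 and 42.3 CPM in ML and 6.35, 9.63 and 12.2 CPM in N (-2.16 ± 0.40, edgeR adjusted p = 0.00507). Dll1 and Jag1 were thus higher and Notch3 lower in N, while the receptors Notch1 and Notch2 were not called. The effector Hey1 was at 105, 277 and 116 CPM in ML and 34.8, 153 and 20.04 CPM in N and passed in the paired fit only (adjusted p = 0.0338 against 0.273 unpaired).

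In the TGF-beta and BMP list, 7 of 26 tested genes were higher and none lower, against 4.22% and 2.73% of all genes. There were 4 higher without ML 1 and 3 without ML 2. Tgfbr3, the co-receptor betaglycan, was at 13.1, 40.5 and 24.7 CPM in ML and 243, 214 and 185 CPM in N (3.03 ± 0.34, edgeR adjusted p = 0.000218). Ltbp2, a matrix protein of the latent TGF-beta binding family, was at 29.7, 72.8 and 41.3 CPM in ML and 737, 293 and 399 CPM in N (3.31 ± 0.38, edgeR adjusted p = 0.000259). The inhibitors of DNA binding, which BMP signals induce, included 3 called genes. Id3 was at 167, 99.6 and 420.3 CPM in ML and 1493, 1585 and 1424 CPM in N (2.71 ± 0.55, edgeR adjusted p = 0.00848). Id1 was at 41.4, 62.5 and 125 CPM in ML and 289, 418 and 314 CPM in N (2.16 ± 0.49, edgeR adjusted p = 0.0151). Id4, a regulator of basal mammary cells, was at 1.81, 7.65 and 17.6 CPM in ML and 219, 223 and 67.2 CPM in N (4.24 ± 0.91, edgeR adjusted p = 0.0122). Leaving out single libraries ended some of these calls. The Id1 call was lost without ML 1 (edgeR adjusted p = 0.0718) or without ML 2 (edgeR adjusted p = 0.068). The Id4 call was lost without ML 2 (edgeR adjusted p = 0.0585). Fst, follistatin, an antagonist of activin, rose (3.87 ± 0.89, edgeR adjusted p = 0.0178). The Fst call was lost without ML 1 (edgeR adjusted p = 0.0534) or without ML 2 (edgeR adjusted p = 0.0778). Smad7, an inhibitor of the pathway, rose by a smaller amount (1.01 ± 0.27, edgeR adjusted p = 0.0357). The Smad7 call was lost without any one of ML 1, ML 2, N 1, N 2 or N 3 (edgeR adjusted p = 0.0579 to 0.154). The ligands Tgfb1, Tgfb2 and Tgfb3 and the receptor Tgfbr2 were not called in the unpaired fit, and Tgfb3, at 253, 542.1 and 399 CPM in ML and 163, 252 and 92.3 CPM in N, passed as lower in the paired fit (adjusted p = 0.0395 against 0.107).

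Growth factor genes changed in both directions. Of 28 tested, 6 were higher and 6 lower, against 4.22% and 2.73% of all genes. The counts were 3 and 3 without ML 1 and without ML 2, and 3 lower without N 1. Within the ErbB family, the receptor Erbb3 fell, at 378, 301 and 276 CPM in ML and 48.4, 56.0 and 106 CPM in N (-2.18 ± 0.33, edgeR adjusted p = 0.00134), and its ligand neuregulin, Nrg1, rose, at 6.11, 4.13 and 9.71 CPM in ML and 56.9, 61.4 and 61.9 CPM in N (3.17 ± 0.46, edgeR adjusted p = 0.000937). Btc, betacellulin, a ligand of Egfr, fell, at 20.5, 28.8 and 23.2 CPM in ML and 4.74, 4.48 and 1.64 CPM in N (-2.74 ± 0.56, edgeR adjusted p = 0.00904). Erbb4 fell (-2.58 ± 0.68, edgeR adjusted p = 0.0333). The Erbb4 call was lost without any one of ML 1, ML 2, N 1 or N 3 (edgeR adjusted p = 0.0514 to 0.13). Nrg2 rose (2.25 ± 0.53, edgeR adjusted p = 0.0204). The Nrg2 call was lost without any one of ML 1, ML 2, N 1 or N 2 (edgeR adjusted p = 0.0529 to 0.0921). The receptor Egfr itself was at 45.7, 91.0 and 123 CPM in ML and 191, 117 and 238 CPM in N and was not called. Among binding proteins of the insulin-like growth factors, Igfbp6 was at 0.689, 2.38 and 2.51 CPM in ML and 52.3, 104 and 39.3 CPM in N (5.13 ± 0.85, edgeR adjusted p = 0.00239). Igfbp3 was at 21.4, 31.9 and 40.4 CPM in ML and 859, 500.2 and 1096 CPM in N (4.71 ± 0.89, edgeR adjusted p = 0.00582), both with N far above ML. Kit, the stem cell factor receptor, also fell and is given below. Fgfr3 rose (2.08 ± 0.46, edgeR adjusted p = 0.0145). The Fgfr3 call was lost without ML 1 (edgeR adjusted p = 0.0739) or without ML 2 (edgeR adjusted p = 0.056). The remaining called members were near the threshold. Igfbp4 was higher (2.19 ± 0.61, edgeR adjusted p = 0.0448). The Igfbp4 call was lost without any one of ML 1, ML 2, N 1, N 2, N 3 or 7 of the 12 libraries of the other genotypes (edgeR adjusted p = 0.0517 to 0.133). Igfbp5 was lower (-1.76 ± 0.49, edgeR adjusted p = 0.0441). The Igfbp5 call was lost without any one of ML 1, ML 2, ML 3, N 1, N 3 or 8 of the 12 libraries of the other genotypes (edgeR adjusted p = 0.0506 to 0.146). Met, a growth factor receptor, was lower (-1.08 ± 0.29, edgeR adjusted p = 0.0381) and was not called in the paired fit (adjusted p = 0.0598). The Met call was lost without any one of ML 1, ML 2, ML 3, N 1, N 2 or D542G N 2 (edgeR adjusted p = 0.0535 to 0.123).

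Of 28 tested axon guidance genes, 5 were higher and 1 lower, against 4.22% and 2.73% of all genes. The lower count was thus near the share over all genes. The 2 netrins moved in opposite directions. Ntn1 fell, at 108, 212 and 149.8 CPM in ML and 13.2, 22.1 and 10.6 CPM in N (-3.35 ± 0.42, edgeR adjusted p = 0.000369). Ntn4, which binds laminins in basement membranes, rose, at 78.2, 41.8 and 67.2 CPM in ML and 708, 796 and 386 CPM in N (3.34 ± 0.40, edgeR adjusted p = 0.000293). Sema5a, a transmembrane semaphorin, rose as well, at 3.95, 14.7 and 11.4 CPM in ML and 141, 91.3 and 124 CPM in N (3.57 ± 0.68, edgeR adjusted p = 0.00613). The netrin receptor Unc5c was at 0.0475, 0.05 and 0.203 CPM in ML and 4.19, 6.87 and 0.403 CPM in N (5.203 ± 1.24, edgeR adjusted p = 0.0208) and lost its call in the paired fit (adjusted p = 0.0923). The Unc5c call was lost without any one of ML 1, ML 2, N 1 or N 2 (edgeR adjusted p = 0.0519 to 0.0963). The list's higher count was 2 without ML 1, ML 2 or N 1 and 3 without ML 3 or N 2.

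**Figure D4:**
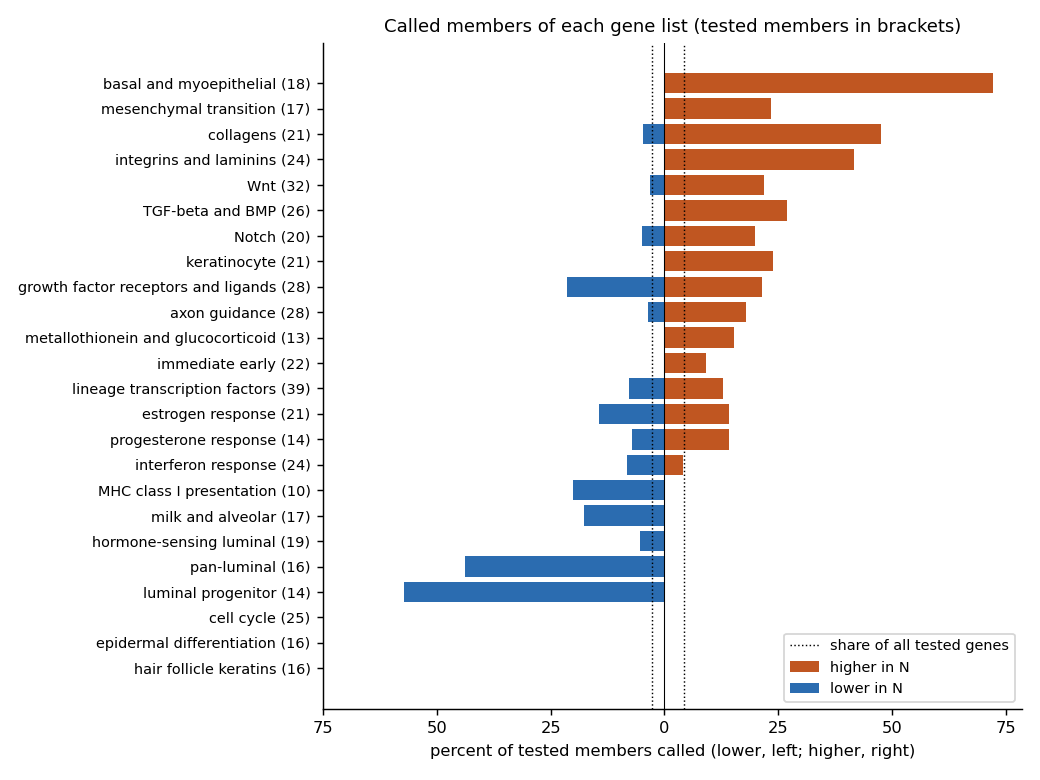
Percent of the tested members of 24 gene lists called lower (blue, left) or higher (orange, right) in N, with the number of tested members in brackets; dotted lines mark the shares over all tested genes, 2.73% lower and 4.22% higher. Basal, collagen and integrin lists lie furthest to the right and luminal progenitor and pan-luminal lists furthest to the left.

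Genes of luminal cells were among the largest falls in N. The 10 largest falls among called genes of moderate level were Ctse, Hap1, Aldh1a3, Alox15, Scml4, Fgb, Fgg, Scara5, Slc5a7 and Kit. Aldh1a3, the retinaldehyde dehydrogenase used to mark luminal progenitors, was at 554, 1156 and 666 CPM in ML and 39.8, 44.0 and 46.5 CPM in N (-4.19 ± 0.67, edgeR adjusted p = 0.00187). Kit was at 515, 875 and 584 CPM in ML and 34.1, 58.5 and 36.7 CPM in N (-3.93 ± 0.69, edgeR adjusted p = 0.00348). Scara5, a scavenger receptor for ferritin, was at 109, 163 and 158 CPM in ML and 11.3, 9.63 and 6.17 CPM in N (-3.99 ± 0.41, edgeR adjusted p = 9.71e-05). In these genes the N values lay within a narrow range. The 10 falls too were drawn only from genes whose N and ML values do not overlap. Scml4, a Polycomb-group relative, was at 40.5, 90.6 and 34.1 CPM in ML and 3.89, 3.17 and 2.59 CPM in N (-4.10 ± 0.70, edgeR adjusted p = 0.0031), and these 4 genes kept their calls with every library left out. The fibrinogen chains Fgb, at 2069, 211 and 589 CPM in ML and 110.4, 46.4 and 16.9 CPM in N (-4.05 ± 1.08, edgeR adjusted p = 0.0352), and Fgg (-3.995 ± 1.05, edgeR adjusted p = 0.0336), were highest in ML 1. Their calls were less stable. The Fgb call was lost without any one of ML 1, N 1, N 2 or N 3 (edgeR adjusted p = 0.0568 to 0.159). The Fgg call was lost without any one of ML 1, N 2 or N 3 (edgeR adjusted p = 0.0959 to 0.152). For the lipoxygenase Alox15 (-4.14 ± 0.88, edgeR adjusted p = 0.0112), the call was lost without N 1 (edgeR adjusted p = 0.0519). Hap1 (-4.28 ± 1.01, edgeR adjusted p = 0.0203) and the choline transporter Slc5a7 (-3.94 ± 0.97, edgeR adjusted p = 0.0252) each rested on more. The Hap1 call was lost without any one of ML 1, N 1 or N 3 (edgeR adjusted p = 0.0682 to 0.0837). The Slc5a7 call was lost without any one of ML 2, N 1 or N 3 (edgeR adjusted p = 0.0778 to 0.105). The protease Ctse, with the largest fall (-4.37 ± 1.21, edgeR adjusted p = 0.0423), was also the least stable, as the Ctse call was lost without any one of ML 1, ML 3, N 1, N 2, N 3 or 9 of the 12 libraries of the other genotypes (edgeR adjusted p = 0.051 to 0.128).

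On the pan-luminal list 7 of 16 tested genes were lower and none higher, against 2.73% of all genes, with a median of -2.11. The count was 4 without N 3, 9 in the paired fit, 12 without the wild-type library N 3, 4 without ML 1, 3 without ML 2 and 2 without N 1. Muc1, the mucin of the luminal surface, was at 177, 373 and 284 CPM in ML and 9.35, 80.2 and 18.3 CPM in N (-2.95 ± 0.62, edgeR adjusted p = 0.0104). Spint1, an inhibitor of epithelial surface proteases, was at 537, 402 and 395 CPM in ML and 108, 157 and 111 CPM in N (-1.83 ± 0.37, edgeR adjusted p = 0.00795). Both kept their calls with every library left out, and the fold of Muc1 ranged from -4.33 without N 2 to -2.50 without N 1. Epcam, the cell adhesion molecule often used to separate luminal from basal cells, was at 2967, 2782 and 2336 CPM in ML and 708, 995 and 566 CPM in N (-1.83 ± 0.40, edgeR adjusted p = 0.0137). The Epcam call was lost without N 1 (edgeR adjusted p = 0.0611) or without N 3 (edgeR adjusted p = 0.0526). Ehf, an epithelial ETS factor, fell (-2.25 ± 0.53, edgeR adjusted p = 0.0188). The Ehf call was lost without ML 2 (edgeR adjusted p = 0.0905) or without N 1 (edgeR adjusted p = 0.0725). The luminal keratins were lower in N in every library but more variable. Krt18 was at 5391, 3911 and 3579.9 CPM in ML and 575, 1112 and 292 CPM in N (-2.70 ± 0.90, edgeR adjusted p = 0.0881). Krt19 was at 8782, 7060.1 and 6104 CPM in ML and 681, 1392 and 349 CPM in N (-3.18 ± 0.95, edgeR adjusted p = 0.0587). Neither passed unpaired, and both passed in the paired fit (adjusted p = 0.0395 and 0.0239). Krt8 was at 712, 801 and 589 CPM in ML and 199, 256 and 84.1 CPM in N and passed in neither (0.179 unpaired, 0.0726 paired). For these 3 keratins N 2, the N library rich in milk transcripts, was the highest N library. Not every epithelial gene was lower, since Grhl2, an epithelial transcription factor, was at 105, 121 and 98.4 CPM in ML and 114, 86.5 and 93.0 CPM in N with overlapping groups.

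Of 14 tested luminal progenitor genes, 8 were lower and none higher, against 2.73% and 4.22% of all genes, with a median of -2.40. Without N 3, 6 were lower. Ltf, lactoferrin, was at 2917, 8414 and 6811 CPM in ML and 277, 591 and 327 CPM in N (-3.92 ± 0.64, edgeR adjusted p = 0.00214). Mfge8, a milk fat globule protein, was at 7065, 14209 and 8625 CPM in ML and 1162, 2264 and 1009 CPM in N (-2.75 ± 0.38, edgeR adjusted p = 0.000798). Lif, a cytokine, was at 59.5, 37.7 and 162 CPM in ML and 16.5, 9.03 and 17.4 CPM in N (-2.59 ± 0.46, edgeR adjusted p = 0.00369). Tnfaip2 was at 56.3, 54.4 and 74.9 CPM in ML and 2.76, 5.69 and 5.34 CPM in N (-3.75 ± 0.65, edgeR adjusted p = 0.00329). These genes, Kit and Aldh1a3 kept their calls with each library left out. Foxi1, a transcription factor of ionocyte-type cells that was among the lineage factors tested, fell as well, at 62.0, 176 and 37.6 CPM in ML and 4.47, 12.5 and 2.62 CPM in N (-3.82 ± 0.70, edgeR adjusted p = 0.00507). Elf5, the ETS factor that specifies alveolar cells, was at 67.1, 250 and 90.3 CPM in ML and 3.34, 67.1 and 7.95 CPM in N, passed only in the paired fit (adjusted p = 0.0237 against 0.143), and was highest in the number 2 libraries of both gates. Lcn2, lipocalin 2, and Cd14, a receptor for bacterial lipopolysaccharide, were near the threshold. For Lcn2 (-2.26 ± 0.63, edgeR adjusted p = 0.0435), the call was lost without any one of ML 1, ML 2, ML 3, N 1, N 3 or 8 of the 12 libraries of the other genotypes (edgeR adjusted p = 0.0533 to 0.16). For Cd14 (-2.42 ± 0.68, edgeR adjusted p = 0.0458), the call was lost without any one of ML 1, ML 2, ML 3, N 1, N 3 or 11 of the 12 libraries of the other genotypes (edgeR adjusted p = 0.0521 to 0.165), and its log2 fold change was -4.08 without N 2. The progenitor-list genes Sox10, Itga2 and Itgb3 were not called.

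The milk protein genes Csn2 and Wap did not separate the gates in the unpaired fit. Csn2, beta-casein, was at 0.404, 9321 and 0.474 CPM in ML and 0, 17514 and 0.0503 CPM in N, so that 1 library of each gate, number 2 in both, held nearly all of it. Wap, whey acidic protein, followed the same pattern, with 274 CPM in ML 2 and 2617 CPM in N 2, and was called in the paired fit only (adjusted p = 0.0419 against 0.593). Of 17 tested milk and alveolar genes, 3 were lower and none higher, against 2.73% and 4.22% of all genes. The 3 were Ltf, Mfge8 and Lcn2, which are also on the progenitor list. In the paired fit 4 members of the milk list were lower and 1 higher, against 3.74% and 4.95% of all genes.

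Esr1 and Pgr, which encode the estrogen and progesterone receptors, were not called between the gates, whereas the prolactin receptor gene Prlr was lower and Oxtr, given above, higher in N. Esr1 was at 271, 49.4 and 112 CPM in ML and 112, 67.5 and 49.9 CPM in N, with overlapping groups and a log2 fold change of -0.92 ± 0.96, edgeR adjusted p = 0.633. Its size in the paired fit was -0.68 ± 0.57 (adjusted p = 0.537). Pgr was at 22.3, 11.0 and 10.1 CPM in ML and 11.6, 6.64 and 3.50 CPM in N (edgeR adjusted p = 0.632). Foxa1, the pioneer factor that opens chromatin for the estrogen receptor, was at 659.6, 134 and 297 CPM in ML and 114, 107 and 43.0 CPM in N (-2.04 ± 1.16, edgeR adjusted p = 0.321). The standard errors of Esr1 and Foxa1 were near 1 log2 unit in the unpaired fit, so a change of several-fold in either gene could have been missed at this spread. Gata3, a luminal lineage factor, was at 383, 298 and 240.1 CPM in ML and 180.1, 167 and 141 CPM in N and passed in the paired fit only (adjusted p = 0.0495 against 0.178). On the hormone-sensing list 8 of 19 tested genes had all N values below all ML values, as did 15.2% of all genes. In 2 of them all N values lay above, as in 14.8% of all genes. The list's median log2 fold change was -0.92 against -0.02 for all genes. In the unpaired fit 1 of the 19 was called lower and none higher, against 2.73% and 4.22% of all genes. That gene was Prlr, at 1499.8, 367 and 704 CPM in ML and 76.2, 139 and 55.4 CPM in N (-3.25 ± 0.89, edgeR adjusted p = 0.0401). In the paired fit 3 members were lower, Prlr (adjusted p = 0.0337), Gata3 and Cited4 (adjusted p = 0.0199 against 0.0857 unpaired), and 1 was higher, Tfap2c (adjusted p = 0.04995 against 0.106). However, the Prlr call was lost without any one of ML 1, ML 3, N 1, N 2, N 3 or 7 of the 12 libraries of the other genotypes (edgeR adjusted p = 0.0506 to 0.152), and 6 members were lower without the wild-type library N 3. Cited1, a co-activator of the estrogen receptor, was at 1872, 499.7 and 656 CPM in ML and 120.1, 218 and 14.7 CPM in N and did not pass (-3.10 ± 1.18, edgeR adjusted p = 0.136).

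Genes known to respond to estrogen went both ways. Of 21 tested, 3 were higher and 3 lower, against 4.22% and 2.73% of all genes, with a median of 0.09. Greb1, an estrogen receptor cofactor and target, was higher in N, at 2.02, 1.65 and 1.58 CPM in ML and 15.8, 12.1 and 9.19 CPM in N (2.82 ± 0.49, edgeR adjusted p = 0.00329), although Esr1 was not. Cxcl12, a chemokine, was at 10.2, 48.2 and 35.4 CPM in ML and 859, 602 and 418 CPM in N (4.32 ± 0.72, edgeR adjusted p = 0.00239). Ccnd1, cyclin D1, was lower, at 389, 507 and 333 CPM in ML and 33.3, 81.8 and 47.2 CPM in N (-2.92 ± 0.40, edgeR adjusted p = 0.000774). These 3 kept their calls with every library left out, while Igfbp4, Prlr and Rasd1 did not. For Rasd1 (-0.89 ± 0.24, edgeR adjusted p = 0.0356), the call was lost without any one of ML 1, ML 2, N 1, N 3 or D542G N 3 (edgeR adjusted p = 0.0509 to 0.162). The lower count of this list was 1 without ML 1, N 1, N 3 or the D542G library N 3, and 5 without the wild-type library N 3. Areg, amphiregulin, an estrogen-induced ligand that relays the signal to neighbouring cells, was at 62.8, 16.8 and 58.5 CPM in ML and 9.99, 16.8 and 58.6 CPM in N, with overlapping groups (-0.69 ± 0.61, edgeR adjusted p = 0.559).

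Of 14 tested progesterone-response genes, 2 were higher and 1 lower in the unpaired fit, against 4.22% and 2.73% of all genes. The counts were 2 and 5 in the paired fit, and 1 and 0 with the 6 libraries alone. Cxcl14, a chemokine, was at 4.64, 20.2 and 102 CPM in ML and 3558, 2784 and 2149 CPM in N (6.07 ± 1.20, edgeR adjusted p = 0.00741), one of the larger changes in CPM. Id4, above, was the other, and Lif the lower one. The 4 that joined Lif in the paired fit were Elf5, Fkbp5, the R-spondin gene Rspo1 (adjusted p = 0.0256 against 0.105 unpaired) and Calca, which encodes calcitonin (adjusted p = 0.0118 against 0.152). Tnfsf11, which encodes RANK ligand, was at 0.119, 1.48 and 0.881 CPM in ML and 0, 4.23 and 0.629 CPM in N and was not called. Wnt4 was at 182, 86.3 and 134 CPM in ML and 33.5, 61.7 and 118 CPM in N, not called with all libraries (0.184) and lower without N 3 (log2 fold change -1.48, adjusted p = 0.0329). N 3 was the N library nearest to the ML values of Wnt4.

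Some keratinocyte genes shared by basal mammary and epidermal cells rose in N, and genes of differentiated epidermis were high in the number 3 libraries. Of 21 tested keratinocyte genes 5 were higher, none lower and 16 not called in the unpaired fit, against 4.22% higher over all genes. The number higher was 13 in the paired fit, against 4.95% of all genes, 2 without ML 2 and 2 with the 6 libraries alone. The 5 were Krt14, Itga6, Itgb4, Col17a1 and Dst. Dst, a linker of keratin to hemidesmosomes, was at 115, 68.1 and 96.8 CPM in ML and 305, 291 and 349.6 CPM in N (1.75 ± 0.36, edgeR adjusted p = 0.00961). Perp, a desmosome gene, was at 219, 298 and 1633 CPM in ML and 1337, 1283 and 6060.2 CPM in N and passed in the paired fit only (adjusted p = 0.00274 against 0.213), and Krt15 showed the same (0.00217 against 0.118), at 69.5, 191 and 987 CPM in ML and 1307, 1592 and 8409 CPM in N. In both, N 3 was the highest N library and ML 3 the highest ML library. Krt1, which marks suprabasal epidermal cells, was at 4.28, 2.30 and 341 CPM in ML and 1.36, 0.629 and 3861 CPM in N, and Krt10 at 4.47, 9.35 and 906 CPM in ML and 12.7, 13.5 and 6009 CPM in N. Their fold changes turned from 3.47 and 2.71 with all libraries to -6.84 and -4.53 without N 3, and neither was called in either fit. None of 16 tested epidermal differentiation genes and none of 16 hair follicle keratin genes was called with all libraries or without N 3, and 1 epidermal gene was lower in the paired fit.

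Some stress and immune genes differed between the gates, where 4.22% of all genes were higher and 2.73% lower in the unpaired fit. Of the immediate early genes, 2 of 22 tested were higher, with 1 without ML 1, 4 without the wild-type library N 3 and 4 in the paired fit. Egr2, a zinc finger factor, was at 77.5, 111 and 178 CPM in ML and 925, 712 and 899.5 CPM in N (2.79 ± 0.41, edgeR adjusted p = 0.00109). Myc was at 186, 275 and 279.6 CPM in ML and 611, 727 and 825 CPM in N (1.55 ± 0.33, edgeR adjusted p = 0.0117). The Myc call was lost without ML 1 (edgeR adjusted p = 0.0633). The dissociation-sensitive genes Fos, at 8175, 26200.5 and 6722 CPM in ML and 13460.5, 15406 and 10753 CPM in N, and Jun, at 3199.6, 8579.9 and 2656 CPM in ML and 3062, 3721 and 3534 CPM in N, were high in all 6 libraries and overlapped between gates. The metallothioneins, which bind zinc and copper, rose, with Mt1 at 161, 210.4 and 318 CPM in ML and 2124, 2579 and 1815 CPM in N (3.24 ± 0.59, edgeR adjusted p = 0.00458). Mt2 was at 23.8, 22.8 and 71.6 CPM in ML and 465, 558 and 409 CPM in N (3.60 ± 0.76, edgeR adjusted p = 0.0108). The Mt2 call was lost without ML 1 (edgeR adjusted p = 0.0593) or without ML 2 (edgeR adjusted p = 0.055). Glucocorticoid targets on the same list, such as Fkbp5, at 47.9, 169.9 and 61.5 CPM in ML and 10.5, 45.5 and 33.0 CPM in N, were not called unpaired, and Fkbp5 was lower in the paired fit (adjusted p = 0.0235), so that 2 of 13 tested members were higher. Icam1, an adhesion molecule for leukocytes, was at 112, 109 and 192 CPM in ML and 893, 525 and 949.9 CPM in N (2.52 ± 0.32, edgeR adjusted p = 0.000385), and no other of the 20 tested NF-kB and inflammatory genes was higher in the unpaired fit, where Tnfaip2 was lower. In the paired fit Csf1, a macrophage growth factor, was higher as well (adjusted p = 0.0376 against 0.069), and Cxcl2, a chemokine, lower (adjusted p = 0.0261 against 0.104). With the 6 libraries alone 3 were higher. Of 20 tested p53-pathway and cell cycle inhibitor genes, Phlda3, a p53 target, rose, at 24.6, 31.2 and 36.1 CPM in ML and 141, 163 and 118 CPM in N (2.20 ± 0.31, edgeR adjusted p = 0.000862) and so did Cdkn1c, at 1.28, 3.43 and 4.02 CPM in ML and 19.5, 19.1 and 14.98 CPM in N (2.62 ± 0.44, edgeR adjusted p = 0.00275). Cdkn2c was lower (-1.15 ± 0.33, edgeR adjusted p = 0.0486) and was not called in the paired fit (adjusted p = 0.075). The Cdkn2c call was lost without any one of ML 1, ML 2, ML 3, N 1, N 2 or 7 of the 12 libraries of the other genotypes (edgeR adjusted p = 0.0588 to 0.169).

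A few interferon and antigen presentation genes differed between the gates. Ifih1, a sensor of viral RNA, was at 58.6, 68.8 and 57.7 CPM in ML and 21.3, 23.8 and 24.0 CPM in N (-1.42 ± 0.26, edgeR adjusted p = 0.00506). Irf1 was higher (1.36 ± 0.33, edgeR adjusted p = 0.0226). The Irf1 call was lost without any one of ML 1, ML 2 or N 1 (edgeR adjusted p = 0.0784 to 0.0871). Of 24 tested interferon genes, 1 was higher, near the 4.22% of all genes, and 2 were lower, against 2.73% of all genes, with 5 lower without the wild-type library N 3. On the MHC class I list 2 of 10 tested genes were lower and none higher. Tap2, a subunit of the peptide transporter, fell (-1.24 ± 0.28, edgeR adjusted p = 0.017). The Tap2 call was lost without any one of ML 1, N 1 or N 2 (edgeR adjusted p = 0.0506 to 0.0825). Psmb8, an immunoproteasome subunit, was near the threshold (-1.22 ± 0.34, edgeR adjusted p = 0.0427, 0.0579 in the paired fit). The Psmb8 call was lost without any one of ML 1, ML 2, ML 3, N 1, N 2 or 7 of the 12 libraries of the other genotypes (edgeR adjusted p = 0.0504 to 0.155). The list's count rose to 6 without N 3 and fell to 0 without ML 1, N 1 or N 2. H2-K1, a classical class I chain, was at 1863, 1297 and 1409 CPM in ML and 498, 857 and 1260.1 CPM in N, and its adjusted p was 0.109 with N 3 and 0.0248 without it. H2-D1 likewise went from 0.162 to 0.0499, and in both genes N 3 was the highest N library.

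Few cell cycle, protein folding and metabolic genes were called, where 4.22% of all genes were higher and 2.73% lower. None of 25 tested cell cycle genes, none of 20 unfolded protein and heat shock genes and none of 18 cholesterol synthesis genes was called in the unpaired edgeR fit with all libraries. In that fit 1 of 25 oxidative phosphorylation genes and 1 of 19 fatty acid synthesis genes was lower, both near the share over all genes. In 9 of the 25 oxidative phosphorylation genes all N values lay below all ML values, an arrangement found in 15.2% of all genes. The 2 called genes were Sdha, a subunit of succinate dehydrogenase (-0.84 ± 0.24, edgeR adjusted p = 0.0471), and Fads2, a fatty acid desaturase (-1.67 ± 0.48, edgeR adjusted p = 0.0482). In the paired fit the heat shock genes Hspb8 (adjusted p = 0.00838 against 0.0831) and Hspb1 (adjusted p = 0.0304 against 0.392) were higher. The calls of Sdha and Fads2 were not stable. The Sdha call was lost without any one of ML 1, ML 2, ML 3, N 1, N 2, N 3 or 9 of the 12 libraries of the other genotypes (edgeR adjusted p = 0.0503 to 0.157). The Fads2 call was lost without any one of ML 1, ML 2, ML 3, N 1, N 2, N 3 or 10 of the 12 libraries of the other genotypes (edgeR adjusted p = 0.0513 to 0.216). The cholesterol gene Fdft1 was lower without N 3 (adjusted p = 0.00476), and N 3 was its highest N library, at 42.4 CPM.

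Transcription factors of the mammary lineages were tested as 1 list of 39. Unpaired, 5 were higher and 3 lower, against 4.22% and 2.73% of all genes. In the paired fit the counts were 10 and 7, against 4.95% and 3.74% of all genes. Unpaired, 2 were higher without ML 1, ML 2, N 1 or N 2, 1 was lower without ML 2 and 6 were lower without the wild-type library N 3. Besides Egr2, Id4, Foxi1 and Ehf, the called members were Sox4, Runx1, Irx4 and Runx2. Irx4, a homeobox gene, was at 0.452, 1.70 and 14.5 CPM in ML and 206, 191 and 94.4 CPM in N (4.88 ± 1.26, edgeR adjusted p = 0.0316). The Irx4 call was lost without any one of ML 1, ML 2, N 1 or N 2 (edgeR adjusted p = 0.0581 to 0.109). Runx1 rose (1.19 ± 0.31, edgeR adjusted p = 0.0329). The Runx1 call was lost without any one of ML 1, ML 2, ML 3, N 1 or N 2 (edgeR adjusted p = 0.0707 to 0.137). Runx2 fell, at 11.8, 21.6 and 18.7 CPM in ML and 6.84, 7.57 and 3.90 CPM in N (-1.51 ± 0.35, edgeR adjusted p = 0.017). The Runx2 call was lost without ML 2 (edgeR adjusted p = 0.0757) or without N 3 (edgeR adjusted p = 0.0585). Sox4 was near the threshold (1.53 ± 0.43, edgeR adjusted p = 0.0458). The Sox4 call was lost without any one of ML 1, ML 2, ML 3, N 1, N 2 or 8 of the 12 libraries of the other genotypes (edgeR adjusted p = 0.0516 to 0.164). Sox10, which marks both basal and progenitor cells, was at 83.9, 216 and 64.8 CPM in ML and 166, 147 and 66.5 CPM in N with overlapping groups (0.06 ± 0.56, edgeR adjusted p = 0.972).

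Some markers of other cell types differed between the gates, where 4.22% of all genes were higher and 2.73% lower in the unpaired fit. In the unpaired fit none of the tested members was called for endothelial (12 tested), fibroblast (12), adipocyte (7), B and plasma cell (9), erythroid (4), skeletal muscle (6) or melanocyte (3) lists. In the paired fit the endothelial genes Cldn5 (adjusted p = 0.00946) and Tie1 (adjusted p = 0.0302) and the adipocyte gene Fabp4 (adjusted p = 0.0164) were higher, and the immunoglobulin gene Ighg1 was lower (adjusted p = 0.00237), with all of its reads in ML 2 (1524 CPM). Over the endothelial list 7 of 12 genes had all N values above all ML values, as did 14.8% of all genes, and the median log2 fold change was 1.40 against -0.02 for all genes. Pecam1, an endothelial adhesion molecule, was at 17.6, 49.0 and 60.1 CPM in ML and 78.4, 218 and 80.0 CPM in N (1.57 ± 0.55, edgeR adjusted p = 0.103), and the endothelial list summed to 944 CPM in N 2 against 260.0 to 383 CPM elsewhere. Of 8 pericyte genes, Mcam rose, at 13.6, 16.1 and 16.5 CPM in ML and 328, 248 and 146 CPM in N (3.96 ± 0.39, edgeR adjusted p = 8.63e-05), and Cspg4 rose (4.44 ± 1.11, edgeR adjusted p = 0.0265). The Cspg4 call was lost without any one of ML 1, ML 2 or N 1 (edgeR adjusted p = 0.0571 to 0.113). Notch3, the other called gene of that list, fell, and the defining pericyte gene Rgs5 was at 5.97, 16.0 and 35.4 CPM in ML and 29.3, 34.4 and 45.0 CPM in N and was not called. Of 10 tested T and NK cell genes, the T cell receptor constant gene Trbc2 was higher, at 5.56, 2.45 and 7.18 CPM in ML and 29.7, 24.4 and 33.6 CPM in N (2.53 ± 0.64, edgeR adjusted p = 0.0275). The Trbc2 call was lost without any one of ML 1, ML 2, N 1 or N 3 (edgeR adjusted p = 0.0529 to 0.101). Of 8 Schwann cell genes, Ngfr, a neurotrophin receptor that basal mammary cells also express, was higher, at 0.0951, 0 and 0.0904 CPM in ML and 2.67, 1.81 and 1.94 CPM in N (5.04 ± 1.24, edgeR adjusted p = 0.0302). The Ngfr call was lost without any one of ML 1, ML 2, ML 3 or N 1 (edgeR adjusted p = 0.072 to 0.0899). The myelin gene Mbp was lower, at 98.0, 118 and 91.4 CPM in ML and 50.9, 57.2 and 78.4 CPM in N (-0.72 ± 0.17, edgeR adjusted p = 0.0215, 0.0524 in the paired fit). The Mbp call was lost without any one of ML 1, ML 2, N 1 or N 2 (edgeR adjusted p = 0.0554 to 0.102). Mast cell genes were high in 1 library. Tpsb2, a mast cell tryptase, was at 0, 0 and 0.0678 CPM in ML and 0.322, 26.5 and 1.13 CPM in N and was called higher (edgeR adjusted p = 0.0125), as were Cma1 and Mcpt4, which held 14.5 and 10.01 CPM in N 2 and at most 0.552 CPM in the other 5. The call of Tpsb2 was lost without ML 1 (adjusted p = 0.0621) or ML 2 (adjusted p = 0.0591), and those of Cma1 and Mcpt4 without N 2 (log2 fold change of Cma1 3.40, adjusted p = 0.142 and 0.094) or any ML library, and in the paired fit (0.0915 and 0.0911). N 2 was also the library with the most endothelial transcripts, and the part that other cell types play in its values was not tested. Of the macrophage list, Cd163 fell, at 36.1, 56.0 and 44.3 CPM in ML and 8.77, 14.4 and 5.84 CPM in N (-2.23 ± 0.49, edgeR adjusted p = 0.0139). The Cd163 call was lost without any one of ML 2, N 1 or N 3 (edgeR adjusted p = 0.0514 to 0.0636). The defining macrophage genes Adgre1 and Csf1r did not follow it. Adgre1 was at 0.832, 0.05 and 1.69 CPM in ML and 4.07, 0 and 1.89 CPM in N, and Csf1r at 1.38, 0 and 1.42 CPM in ML and 8.17, 0 and 5.61 CPM in N.

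The gate change in Y541S was set against the mean gate change of wild type and D542G, to ask whether any gene behaved differently with this mutation. No gene was called by edgeR (0 of 18298, 0%; smallest adjusted p = 0.0744), with 1416 genes (7.74%) at an unadjusted p below 0.05, whereas DESeq2 called 164 as more positive and 62 as more negative in Y541S and limma-voom with sample weights called 148 and 48. Without N 3 edgeR called 17 and 11, without the wild-type library N 3 45 and 11, and without both 209 and 163. Wild-type N 3, whose Prlr and Epcam were high for its gate as given above, enters the wild-type gate change. Contractile genes, chosen here after their values were seen, had some of the larger differences. Acta2 was at 4639.6, 2438 and 2674 CPM in the Y541S N libraries, against 104, 181 and 582 CPM in wild type and 214, 318 and 221 CPM in D542G N libraries. All 3 Y541S values were above the other 6, and the ML libraries of the 3 genotypes lay between 22.8 and 167 CPM. How many of all genes show this arrangement was not counted. The difference of log2 gate changes was 2.94 ± 0.79, edgeR adjusted p = 0.322. Oxtr was at 1809, 1183 and 623 CPM in Y541S N against 45.4, 71.5 and 166 CPM in wild type and 75.7, 81.2 and 71.0 CPM in D542G N (3.42 ± 0.87, edgeR adjusted p = 0.283), and Tagln at 104, 55.0 and 66.1 CPM against 6.84, 5.43 and 11.8 CPM in wild type and 6.53, 10.5 and 5.75 CPM in D542G (2.93 ± 0.56, edgeR adjusted p = 0.104). Myl9 (2.84 ± 0.58, edgeR adjusted p = 0.153) and Lgals1, a galectin found in stroma and smooth muscle (3.45 ± 0.56, edgeR adjusted p = 0.0744), were similar in direction. None passed in the edgeR fit with all libraries, and the differences are given as sizes with their errors. For these 5 genes the adjusted p of the difference was 0.165 to 0.376 in the paired edgeR fit, 0.0221 to 0.191 without N 3, 0.0168 to 0.0948 without the wild-type library N 3, 0.00765 to 0.012 with limma-voom and 9.30e-07 to 0.0143 with DESeq2.

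**Figure D5:**
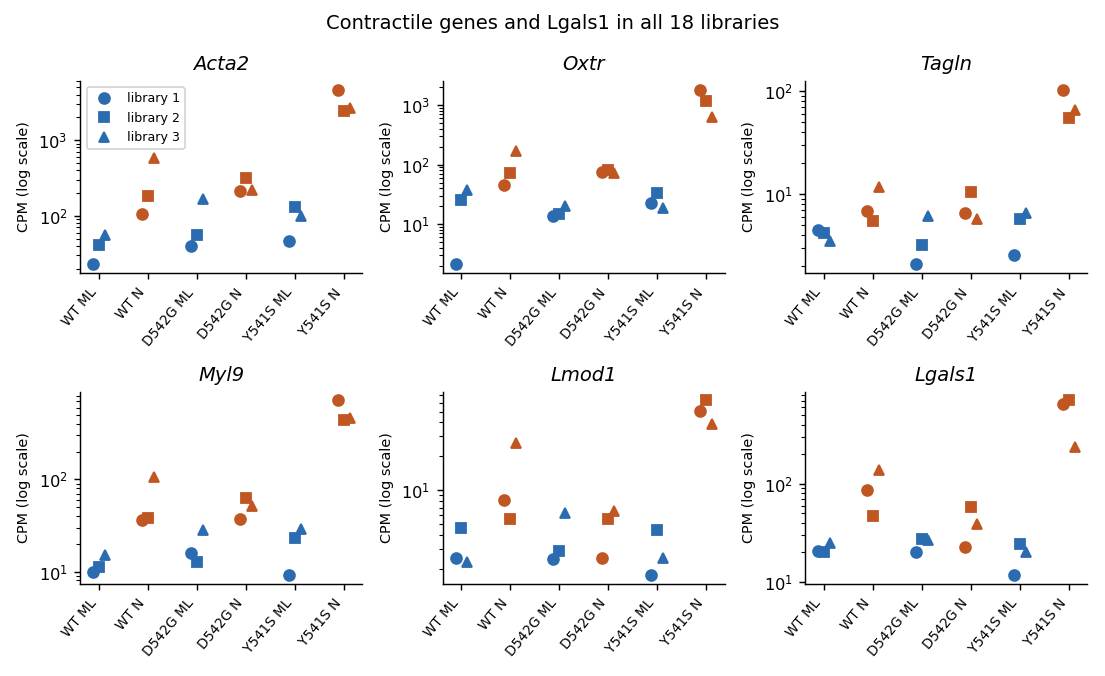
CPM (log scale) of 6 genes in all 18 libraries, by genotype and gate; blue is ML, orange is N and the shape gives the library number. The 3 Y541S N libraries lie above all other libraries in each panel. The genes were chosen after their values were seen, and the share of all genes with this arrangement was not counted.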

How the data were processed

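The deposited tables hold raw counts per gene for each library, made by the authors on genome build GRCm38, per the submitters' processing notes. The aligner, counter, annotation and strand setting were not given in the sources used here. Per the labels' protocols, cells were sorted from mammary glands, RNA was taken up with RNeasy Micro Plus and libraries were made with Nextera XT. Gene names came from GENCODE release M21, which matched 52489 of 52636 identifiers. Of the protein-coding genes lying inside another gene, 87.9% were at 0 in all 18 libraries against 14.9% of the others, and 82 of the 196 genes named overlap another gene, so a level of 0 need not be absence.

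Counts were fitted with edgeR 4.0.16 in R 4.3.3 (TMM scaling, quasi-likelihood test) over 6 groups of 3 libraries, which share 1 estimate of the spread with 12 residual degrees of freedom. Genes passed a filter of at least 10 counts in enough libraries and 15 in all (18298 genes), and an adjusted p below 0.05 was called. The biological coefficient of variation was 0.652. CPM values use the scaled library sizes. The ± value is the absolute log2 fold change over the square root of the test's F statistic, an approximate standard error. Alternatives used DESeq2 1.42.0, limma 3.58.1 with voom and sample weights, other filters and scaling, the 6 libraries alone, the replicate number as a block, and each library left out.

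The genes named are the 4 most changed called members of each list, the 10 most changed genes in each direction with an average log2 CPM of at least 3, and a panel of marker genes. Other members were named after their values were seen, and a few genes that the rule would name are not reported here. The comparison and the 42 gene lists were chosen with earlier results of these data known. Groups came from the labels. The pairing of replicate numbers rests on the correlations given above and on shared epidermal and milk transcripts, not on the labels.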

Additional observations from a re-analysis of the deposited data

How the results depend on the processing

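The named genes kept their direction far more often than their call. Of 134 named genes called, 133 of the 133 with a DESeq2 value, 131 with limma-voom with sample weights, 129 with RLE scaling, 122 without the low-count filter and 94 with the 6 Y541S libraries alone were called again, and between 87 (without ML 1) and 134 (without the wild-type library N 3) with 1 library left out. None of the 134 changed sign under these alternatives. The number of genes called was 1446 higher and 1048 lower with DESeq2, 1477 and 1118 with limma-voom, 624 and 259 with the 6 libraries alone, 512 and 212 with those without N 3, 513 and 264 without both number 3 libraries, and 1023 and 851 without both Y541S N 3 and wild-type N 3. With 1 library left out it ranged from 371 to 1089 higher and from 201 to 1002 lower.

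With the replicate block, 127 of the 134 named genes kept their call, and those that did not are given above with their paired values. The block gave 905 higher and 684 lower, 584 and 292 without N 3, and 427 and 227 with the 6 libraries alone, where 2 residual degrees of freedom remain. For the difference between genotypes the replicate block called 0 genes, and 1 lower without N 3.

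For that difference, where edgeR called 0 genes, DESeq2 gave 164 and 62, limma-voom 148 and 48, leaving out 1 library 0 to 45 higher and 0 to 11 lower, leaving out both number 3 Y541S libraries 1 lower, and leaving out both N 3 libraries 209 and 163.

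Of 62 named genes not called, 25 passed in the paired fit, and 9 changed sign under some setting. In the paired fit the log2 fold changes were -0.98 (Csn2), 0.22 (Fos), -0.19 (Krt1) and -0.41 (Tnfsf11), against 0.91, -0.05, 3.47 and 0.97 unpaired. With the block and the 6 libraries alone they were -1.06, 0.26, -0.18 and -0.38. With the block and without N 3, Csn2 was at -0.28, Krt1 at -1.74 and Tnfsf11 at -0.33. With limma-voom, Csn2 was at -2.54, Fos at 0.44, Krt1 at -2.35, Krt10 at -0.54 and Tnfsf11 at -2.11. Without both number 3 libraries Krt1 was at -1.72. Without both N 3 libraries Fos was at 0.08, Krt1 at -6.86 and Krt10 at -4.55, and with the 6 libraries alone without N 3 at 0.11, -6.83 and -4.52. With 1 library left out, the log2 fold change ranged from -16.80 (without N 2) to 13.70 (without ML 2) for Csn2, -6.84 (without N 3) to 8.61 (without ML 3) for Krt1, -4.53 (without N 3) to 8.19 (without ML 3) for Krt10, -9.66 (without N 2) to 15.89 (without ML 2) for Wap, and -1.40 (without N 2) to 1.70 for Tnfsf11. It ranged from -0.78 to 0.24 for Jun, -6.11 (without N 3; -6.14 without both N 3 libraries) to 0.20 (without ML 3) for Lef1, -0.25 to 0.78 for Sox10 and -0.38 to 0.83 (without ML 2) for Fos, with 0.09 without N 3. For Ighg1 it ranged from -17.97 to 0.00 (without ML 2, which held all of its reads). For N 2, N 3, ML 2 and ML 3, which hold most of the transcript concerned in Csn2, Wap, Krt1, Krt10 and Lef1, the construction of the alternative accounts for the turn, and for the rest the cause was not tested.

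With 3 libraries in each gate the biological coefficient of variation was 0.652, and the standard errors of Esr1 and Foxa1 were near 1 log2 unit.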
